A study of Mus musculus with 3 samples.

Results

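Long intergenic RNA regions are stretches of transcription that lie outside the annotated protein-coding genes, and the array carried probes for them beside its gene probes. The regions described here are those with at least 1 probe whose midpoint lay within 20 kb of the midpoint of a probe for a curated protein-coding transcript on the same chromosome. This rule used positions only and gave 1722 of the 4610 intergenic regions on the array. A region is named for 1 strand, and the 1722 regions covered 1324 intervals, 398 of them with both strands. They were measured by 5979 probes, with a median of 3 and at most 10 per region, and stood beside 830 genes.

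Mouse primary cerebral cultures from embryonic day 18 C57BL6/J embryos were treated on day 10 in vitro for 24 h. A first culture received 1 mM valproate with 0.1% DMSO, another 0.1% DMSO alone, and the last 100 µM lamotrigine with 0.1% DMSO, so the vehicle was common to all. Each treatment had 1 array, so no difference between treatments has a replicate check, and no test between treatments was possible. The series asks which neuronal genes respond to inhibition of class I histone deacetylases.

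Valproate inhibits histone deacetylases, enzymes that remove acetyl groups from histone tails, and histone acetylation is associated with open chromatin and transcription. Lamotrigine, another antiepileptic drug, is known as a blocker of sodium channels. Transcription beside a gene can be an extension of the gene's own transcript past its annotated end, an independent long non-coding RNA, or an antisense transcript from the other strand. Probes of this array read 1 strand each, which separates the last of these from the others but does not separate the first pair.

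The sequences of 9 probes at least 2-fold apart under valproate, a selection and not the 9 farthest from 0, are shown to make clear that each value rests on 1 short stretch of 60 bases. Sequences are those of the array design, written 5′ to 3′, and capitals mark CG dinucleotides, the usual site of DNA methylation. Positions are on mm9 as the files give them.
Trim61 neighbour, chr8:67552372-67552431, minus strand: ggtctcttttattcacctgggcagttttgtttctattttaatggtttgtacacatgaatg
Htr1b neighbour, chr9:81537919-81537978, plus strand: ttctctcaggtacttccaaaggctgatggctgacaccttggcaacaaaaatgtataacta
Pcyt1b neighbour, chrX:91001589-91001648, minus strand: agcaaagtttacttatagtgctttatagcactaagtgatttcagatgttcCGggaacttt
Pdk3 neighbour, chrX:91004138-91004197, plus strand: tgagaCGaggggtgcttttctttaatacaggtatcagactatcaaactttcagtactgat
Cep135 neighbour, chr5:77084839-77084898, minus strand: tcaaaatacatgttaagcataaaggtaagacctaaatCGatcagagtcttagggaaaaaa
Hlx neighbour, chr1:186563316-186563375, plus strand: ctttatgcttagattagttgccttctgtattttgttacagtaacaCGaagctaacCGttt
Isg15 neighbour, chr4:155564366-155564425, plus strand: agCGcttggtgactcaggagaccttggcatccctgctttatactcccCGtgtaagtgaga
Kif3b neighbour, chr2:153167579-153167638, minus strand: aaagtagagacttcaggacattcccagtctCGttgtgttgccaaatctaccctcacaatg
Kif3b neighbour, chr2:153168630-153168689, plus strand: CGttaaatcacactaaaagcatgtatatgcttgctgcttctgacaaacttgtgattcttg
The last pair comes from opposite strands of 1 interval. The Pcyt1b and Pdk3 probes are likewise from opposite strands of 1 interval on chromosome X.

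Region probes resembled those of the farther intergenic regions in sequence. The median GC content was 45.0% in both sets and 41.7% in probes for curated protein-coding transcripts. The hexamer AATAAA, the common signal for cleavage and polyadenylation, was in 4.13% of the 5979 probes, in 3.82% of 10096 farther probes and in 13.2% of 26536 protein-coding probes. Its reverse complement, TTTATT, was in 3.08%, 2.97% and 4.28%. These strings cannot overlap each other, and a match is only a match of letters.

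The probes lay at a median of 8005 bp from their neighbour's probe, with 3006 on the gene's strand and 2973 on the opposite strand. Distance was measured to a probe, which usually lies near the gene's 3′ end, and not to the gene's boundary. Upstream and downstream are also relative to that probe, so a region probe called upstream can lie within the gene. For 770 probes of 210 regions the neighbour's probe lay inside the named region, so for these the name intergenic did not hold against the neighbour. Another 142 regions had probes on both sides of the 20 kb limit. The probe nearest inside it stood 19.997 kb from that of Phf14 and differed by -0.29 (log2, valproate against DMSO), and the first outside stood 20.002 kb from that of Enc1 and differed by -0.17.

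Levels are scaled signals, set so that the 75th percentile of an array's non-control spots is 100. Detection means that the scanner software marked the majority of a probe's spots as well above background. That percentile was a signal of 478 on the valproate, 372 on the DMSO and 388 on the lamotrigine array, and between 49.6% and 52.9% of spots were above background. Between spots of 1 probe printed several times, the standard deviation of a log2 difference was 0.25 below a scaled signal of 25, 0.10 from 25 to 400 and 0.07 above, which covers spots and not cultures. All 10 neuronal, 6 astrocyte, 8 oligodendrocyte lineage and 5 fibroblast markers were detected on every array. Of 6 microglial markers 4 were detected, with Cx3cr1 and P2ry12 not well above background. Of 4 endothelial markers Cdh5 was detected on every array, and Cldn5 and Tek on none. The summed level of the neuronal markers was 22171 on the valproate, 30390 on the DMSO and 26716 on the lamotrigine array, and that of the astrocyte markers was 10519, 14616 and 14241. Fibroblast markers summed to 6153, 8149 and 7253 in the same order, and microglial markers to 1608, 1459 and 1594. Sums follow the brightest genes. Among neuronal and astrocyte markers, Snap25, Slc17a7 and Gfap alone read higher with valproate than with DMSO. The part of cell composition in the results was not tested, and fewer cells of a type cannot be told apart from less RNA per cell.

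Fewer than 1 in 3 of these intergenic probes gave a signal above background. On the DMSO array 1718 of 5979 were detected, or 28.7% (95% exact binomial interval 27.6 to 29.9, counting error only). The share was 32.4% on the valproate and 32.1% on the lamotrigine array. Among farther intergenic probes it was 23.5% on the DMSO array, and among protein-coding probes 67.3%. Detected probes near genes had a median scaled signal of 21.5 on the DMSO array, against 146 for protein-coding probes. A total of 1617 probes were detected on every array and 3845 on none.

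Detection differed by strand and distance. On the gene's strand, 59.0% of probes under 2 kb were detected on the DMSO array, 38.8% at 2 to 5 kb, 34.3% at 5 to 10 kb and 26.2% at 10 to 20 kb. On the opposite strand the order ran the other way, with 19.0%, 21.2%, 23.3% and 25.2%. The strands thus lay far apart beside the gene's probe and close together beyond 10 kb.

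**Figure D1:**
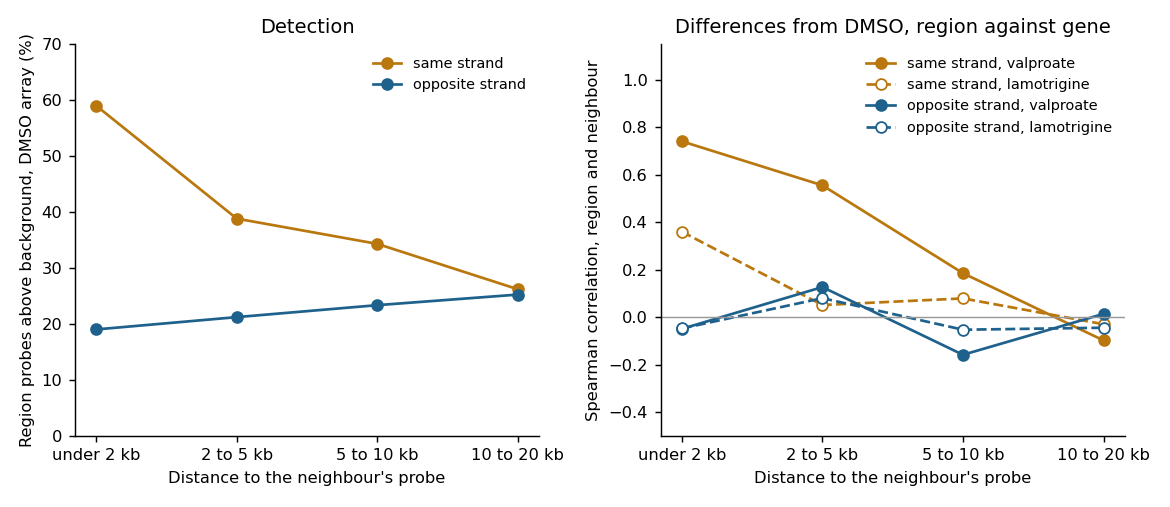
The left panel plots the percent of intergenic probes above background on the DMSO array, and the right panel the Spearman correlation between the log2 difference of a region and that of its neighbour gene, by distance to the gene's probe and by strand. The same-strand lines for detection and valproate start highest under 2 kb, at 59.0% detected and a correlation of 0.74. They lie close to the opposite-strand lines at 10 to 20 kb. Dashed lines are lamotrigine, at 0.36 on the same and -0.05 on the opposite strand under 2 kb, and at 0.05 and 0.08 at 2 to 5 kb.

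The 5 region probes of highest mean signal differed little between valproate and DMSO, except 1 beside Mrpl36. Levels of different probes also depend on the probe, so each is set only against itself on the other arrays. A probe opposite Cnbd2, which encodes a protein with a cyclic nucleotide-binding domain, lay 12.9 kb from the gene's probe and read 5472 with valproate, 5652 with DMSO and 6257 with lamotrigine. Its difference with valproate was -0.05 and that of Cnbd2 -0.55. A probe opposite and downstream of Mrpl36, a mitochondrial ribosomal protein gene, read 4373, 6592 and 6080, a difference of -0.59, with the gene at 0.02. The probe beside Cdc42, a gene of cell polarity and the actin cytoskeleton, lay 0.02 kb from the gene's probe on the same strand and read 4523, 5231 and 4950, a difference of -0.21, with the gene at -0.20. Regions on the strand of and downstream from Rnf4, a ubiquitin ligase gene, and B4galt5, a galactosyltransferase gene, both over 17 kb from the gene's probe, read 4455 and 4249 with DMSO and differed by -0.27 and -0.09. Under spike-in scaling all of these but the Mrpl36 probe lay above 0.

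Between valproate and DMSO most regions differed by less than 2-fold. Of the 1663 region probes above background on both, 17 were at least 2-fold higher with valproate, or 1.02%, and 25 were lower by as much, or 1.5%. Over the whole array, 26538 probes were compared in this way, of which 1.63% passed 2-fold upwards and 1.27% downwards, so the count of higher intergenic probes was below and that of lower ones slightly above that of the whole array. Farther regions had 29 higher and 35 lower of 2272. The median log2 difference was -0.14 near genes, -0.18 in farther regions and -0.07 for protein-coding probes.

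The balance of higher against lower calls rests on how the arrays are scaled. Centring on the median of the probes detected on both arrays gave 24 higher and 15 lower, and equal spike-in signals gave 73 higher and 6 lower, with the median of all detected probes moved up by 0.35. The median difference of the region probes was 0.21 under spike-in scaling. Within 1 scaling, medians fell with GC content, from -0.09 below 40% GC to -0.13 at 40 to 50% and -0.21 at 50% or more. The part of base composition was not tested.

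Higher and lower calls were spread differently over the strands. Of 1012 same-strand probes, 11 were higher and 6 lower. Of 651 opposite-strand probes, 6 were higher and 19 lower. Downstream of the gene's probe lay 437 of the 651 and 16 of the 19 lower ones, 5 of these 16 from 1 region near Kif3b. Median centring gave 13 higher and 2 lower on the same strand and 11 and 13 on the opposite strand. Spike-in scaling gave 47 and 1 against 26 and 5. The balance of higher against lower calls opposite to genes thus rests on the scaling. Lower calls stayed more frequent there than on the same strand under both scalings. Under the normexp background correction 9 same-strand probes were higher, 0 of the opposite strand were higher, and 0 on either strand were lower. The 17 higher probes stood beside 8 genes and the 25 lower beside 16. Dim probes were frequent among them, since 8 of the higher and 17 of the lower had a DMSO level under 25.

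**Figure D2:**
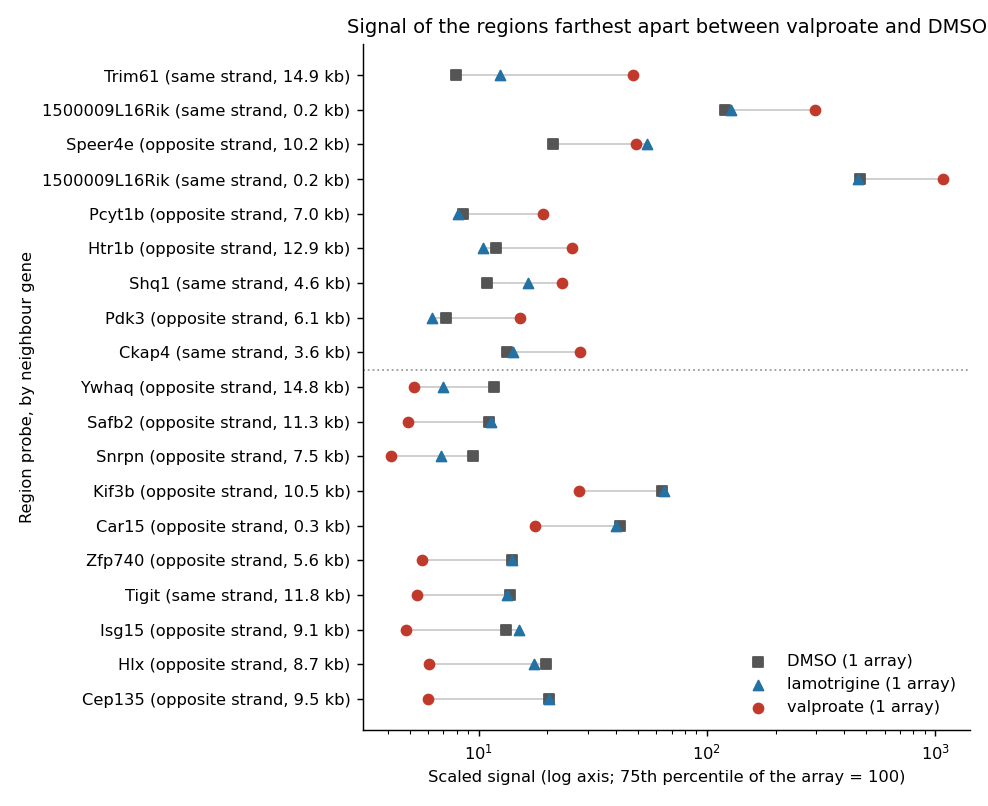
Each row is 1 region probe and plots its scaled signal, on a log axis, on the valproate, DMSO and lamotrigine arrays. Above the dotted line are probes at least 2-fold higher with valproate and below it those at least 2-fold lower, and labels give the neighbour gene, the strand relative to it and the distance. Except beside Speer4e, where lamotrigine reads 54.8 and valproate 49.0, the lamotrigine symbol lies nearer to DMSO or between both.

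The highest difference belonged to a single probe upstream of Trim61, a member of the TRIM family, at chr8:67552315-67561235. It read 47.6 with valproate, 7.94 with DMSO and 12.4 with lamotrigine, a log2 difference of 2.58. Trim61 lay 14.9 kb away on the same strand and was not well above background on the arrays compared.

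Beside 1500009L16Rik on chromosome 10, gene and regions were at least 2-fold higher together. The gene read 278 with valproate, 115 with DMSO and 110 with lamotrigine, a log2 difference of 1.27. In chr10:83181374-83249774 on the gene's strand, all 5 probes were higher, by 1.01 to 1.30. In chr10:83185606-83225506, also on the gene's strand, the 3 probes were higher by 1.17 to 1.21, and 1 of them read 1081, 467 and 459. These 8 probes make up 8 of the 17 higher calls, and 9 remained without them. The gene's probe lay inside both regions, and all 8 probes lay within 0.54 kb of it. The opposite-strand region there was dim. One of its probes read 18.2 with valproate and was not well above background with DMSO, which makes it at least 2.87-fold higher, while another, 4.30 kb from the gene's probe, read 17.0, 12.1 and 7.25, a difference of 0.49.

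An interval on chromosome X between Pcyt1b and Pdk3 was higher on the strand opposite to Pcyt1b, which encodes an enzyme of phosphatidylcholine synthesis. Of the 10 probes of chrX:90997595-91009570 on the minus strand, 9 were detected on both arrays. Their median difference was 0.79, and 8 lay between 0.61 and 1.17. The ninth read 418 with valproate, 491 with DMSO and 409 with lamotrigine, a difference of -0.23. Pcyt1b read 75.4, 115 and 120, a difference of -0.61, so region and gene lay on opposite sides of 0. The minus strand is also that of Pdk3, a pyruvate dehydrogenase kinase gene on the other side of the interval, whose probe lay 8.37 to 9.71 kb from these probes and was higher by 0.76. On the plus strand, which is that of Pcyt1b and opposite to the nearer Pdk3, 1 probe was higher by 1.08 and the other detected ones differed by 0.24 and -0.09.

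Near Htr1b, the gene of serotonin receptor 1B, chr9:81536195-81538236 was dim with DMSO and brighter with valproate. One probe read 25.6, 11.9 and 10.4 with valproate, DMSO and lamotrigine, a difference of 1.11, and the next read 22, 11 and 3.7, a difference of 1.04. The remaining probe was at least 2.68-fold higher. Htr1b, 12.9 kb away on the other strand, was not well above background.

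The rest of the higher group were mostly dim probes whose companions detected in the same region differed by less. Downstream of Shq1, an assembly factor of H/ACA ribonucleoproteins, a same-strand probe read 23.2, 10.8 and 16.5, a difference of 1.1, and its companions differed by 0.34 and 0.67. Shq1 was higher by 0.69. Downstream of Ckap4, an endoplasmic reticulum membrane protein gene, another read 27.9, 13.2 and 14.2, a difference of 1.07, with Ckap4 at 0.22. Of its companions in the region, 3 were detected on both arrays and differed by 0.10, 0.48 and 0.70, the first of them reading 51.6, 48.3 and 42.4. Beside Speer4e, of a family of testis-expressed genes with many similar copies, the probe read 49.0, 21.2 and 54.8, and its companion 45.0, 26.9 and 47.7. Both were thus high with both drugs, and copies of this family could share their signal.

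The lowest region lay downstream of and opposite to Cep135, a gene of centriole assembly. Both probes of chr5:77084398-77086144 were lower with valproate. The first read 5.97 with valproate, 20.3 with DMSO and 20.4 with lamotrigine, a difference of -1.76, and the second 10.5, 31.0 and 32.8, a difference of -1.56. Cep135 read 43.5, 57.4 and 50.1, a difference of -0.40.

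Upstream of Hlx, a homeobox transcription factor gene, the 3 adjacent probes of chr1:186560855-186563399 differed by -0.80, -1.53 and -1.71. The last read 6.06 with valproate, 19.8 with DMSO and 17.5 with lamotrigine. Hlx was not well above background on the arrays compared.

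The interval downstream of Kif3b, a kinesin-2 motor subunit gene, was lower on both of its strands. On the minus strand of chr2:153163620-153170845, opposite to the gene, 8 of 9 probes were detected on both arrays and differed by -1.21 to -0.76, with a median of -1.04, and 5 were at least 2-fold lower. The lowest of these read 27.6 with valproate, 63.7 with DMSO and 64.9 with lamotrigine. They lay within 464 bp and 6 of them overlapped another, so they are repeated readings of 1 short stretch. On the plus strand 5 of 10 probes were detected, with a median of -0.74 and 2 at least 2-fold lower. Kif3b read 116, 106 and 110, a difference of 0.13. In the GRCm38.p6 gene order a long non-coding RNA gene, 2500004C02Rik, follows Kif3b.

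The 3 probes of chr16:17833211-17835112, 0.32 to 0.48 kb from the probe of Car15 and opposite to that carbonic anhydrase gene, differed by -0.92 to -1.24. The lowest of these read 17.6, 41.8 and 39.8 and another 36.1, 76.5 and 73.2 with valproate, DMSO and lamotrigine. Car15 read 197, 200.2 and 198, a difference of -0.03.

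Beside Isg15 alone, an interferon-induced ubiquitin-like protein gene, gene and region probe were each at least 2-fold apart and in opposite directions. The gene read 15.9 with valproate, 7.82 with DMSO and 7.02 with lamotrigine, a difference of 1.02. The probe opposite and downstream, 9.15 kb away, read 4.82, 13.1 and 15.1, a difference of -1.45. Both are dim, where spots of 1 probe scatter most. Over the 5 detected region probes beside Isg15, 4 of them on its strand, the median difference was -0.10 and the highest -0.06.

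The rest of the lowest probes were dim and stood mostly opposite and downstream of genes that hardly differed. Beside Snrpn, an imprinted gene of a spliceosomal protein, the probe read 4.12, 9.42 and 6.85, a difference of -1.19, with Snrpn at -0.01. Beside Safb2, a nuclear scaffold attachment factor, it read 4.87, 11.1 and 11.3, also -1.19, with the gene at -0.26. Beside Ywhaq, a 14-3-3 protein gene, it read 5.23, 11.7 and 6.96, a difference of -1.16, with the gene at -0.09.

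Opposite and upstream of Zfp740, a zinc finger gene, a probe read 5.61, 14.0 and 13.9, a difference of -1.32. On the strand of Tigit, an immune receptor gene that was not detected, 1 probe differed by -1.35. Its 3 detected companions differed by 0.45, -0.14 and -0.19, and 1 probe of the same region nearer Zbtb20 by -0.70, so this difference was not shared along the region.

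Another 274 region probes were above background on the valproate but not on the DMSO array, and 55 the other way round, and for these only a bound can be given. A bound of at least 2-fold held for 9 of the first, or 3.28%, against 8.51% of the 2257 such probes of the whole array, and for 21 of the second, or 38.2%, against 30.9% of 463. Bounds set the bright probe against the higher of the array's lowest detected level and the dim probe's own level. The highest upward bound, at least 3.32-fold, was upstream of Gcnt4, a glycosyltransferase gene, where another probe of the same region differed by -0.91. Lower with valproate were probes opposite 2210016F16Rik, at least 4.26-fold, Myadm, at least 2.95-fold, and Rab2b, a small GTPase gene, at least 2.82-fold. The probe beside 2210016F16Rik read 1.12 with lamotrigine and 16.6 with DMSO, so it was bright on the DMSO array alone.

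Probes of 1 region often differed in the same direction. Of 821 regions with a probe detected on both arrays, 241 had at least 3, and in 150 of those all differences had 1 sign. The median standard deviation within a region was 0.15. In 8 regions every one of at least 3 detected probes was higher by 0.5 or more, and in 5 every one was lower by as much. All 8 of the higher regions lay on their gene's strand, and 4 of the 5 lower ones on the opposite strand. Of the 1663 probes compared, 1012 lay on the gene's strand, and the share among the 241 regions is not given here. The 8 include overlapping regions at 1500009L16Rik and at Cdyl2, so they are not separate sites. Under median centring the counts were 11 higher, all on the gene's strand, and 4 lower, all opposite, and under spike-in scaling 18 same-strand and 3 opposite-strand regions were higher and 1 opposite-strand region lower.

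Besides those at 1500009L16Rik, the higher ones lay beside Kifc1, a mitotic kinesin gene, with 0.88 to 0.93 against 0.92 for the gene, and Isoc2a, with 0.67 to 0.89 against 0.84. At 2210016F16Rik the 4 probes differed by 0.62 to 0.74 and the gene by 0.56. Beside Cdyl2, a chromodomain protein gene, 2 overlapping regions had medians of 0.79 and 0.77 and the gene 0.53. Beside Ikzf2, a zinc finger transcription factor gene 9.08 kb away, the probes differed by 0.58 to 0.79 and the gene by 0.27. The Kifc1 region was also above DMSO with lamotrigine, reading 172, 91.3 and 137 with valproate, DMSO and lamotrigine. Its nearest probe lay 0.001 kb from the gene's probe on the same strand, so these read nearly the same bases.

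Of the lower ones, the region on the strand of Map3k2, a kinase gene, had a median of -0.62, with the gene at -0.83. That opposite Hexim2, which encodes an inhibitor of the elongation kinase P-TEFb, had a median of -0.84, with the gene at -0.37.

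**Figure D3:**
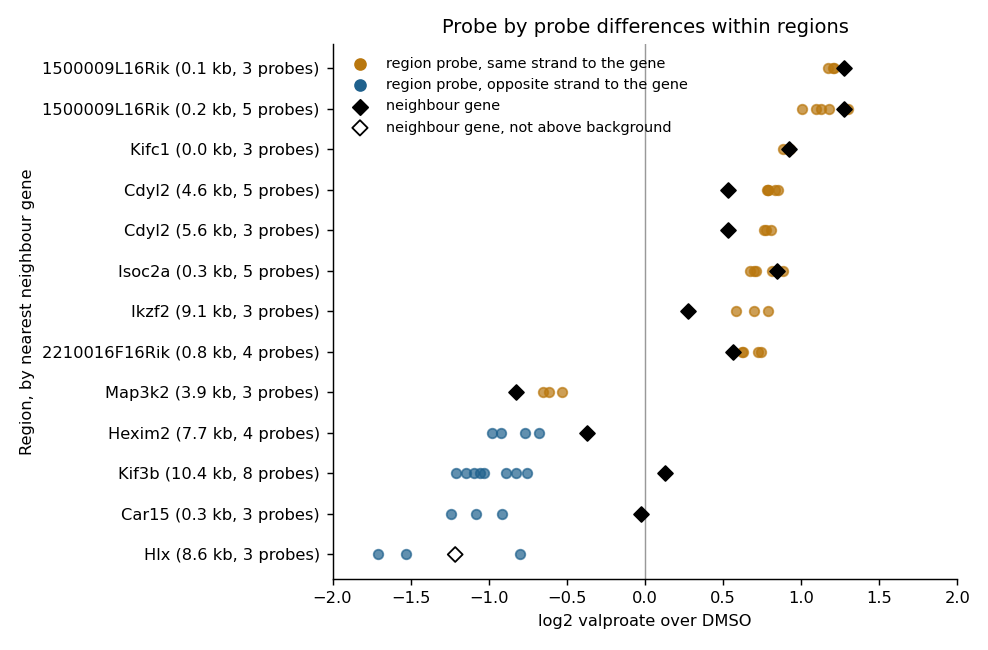
Each row is 1 of the 13 regions in which at least 3 probes were detected on both arrays and all lay 0.5 or more from 0 on the same side. Circles are the log2 differences of single probes between valproate and DMSO, coloured by strand, and diamonds those of the neighbour gene. Same-strand circles lie on the same side of 0 as their diamond, near it beside Kifc1 and beyond it beside Ikzf2, where the diamond lies at 0.27. Opposite-strand circles beside Hexim2, Hlx and Car15 also lie on the side of their diamond. That diamond is at -0.03 for Car15 and not above background for Hlx. Beside Kif3b the diamond lies at 0.13, on the other side of 0 from the circles.

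Set beside their neighbour genes, regions followed them most closely on the same strand and at short distance. Region and gene were both detected on both arrays in 1403 pairs from 420 genes, and 61.1% lay on the same side of 0, with a Spearman correlation of 0.17. On the same strand under 2 kb, 81.6% of 185 pairs from 62 genes lay on the same side, with a Spearman correlation of 0.74. It was 0.55 at 2 to 5 kb, 0.18 at 5 to 10 kb and -0.10 at 10 to 20 kb. On the opposite strand the values in the same order were -0.05, 0.13, -0.16 and 0.01. Split further by side of the gene's probe, some smaller classes stood apart from these. Opposite and upstream at 2 to 5 kb it was 0.48 over 30 pairs from 14 genes, with 21 of them on the same side, and on the same strand upstream at 5 to 10 kb it was 0.37 over 39 pairs, with 69.2%. These are descriptions across pairs that share the arrays and, within a gene, the gene's probe. Among all region probes, 36 on the gene's strand, beside 27 genes, overlapped the neighbour's probe. Such pairs can partly read the same bases.

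The same-strand relation remained with 1 value a gene, in part weaker. Under 5 kb the Spearman correlation was 0.64 over 378 pairs and 0.61 with 1 value for each of 121 genes. It was 0.85 over 154 pairs with the gene's probe inside the region and 0.46 over 224 with it outside, or 0.88 and 0.40 with 1 value a gene. With 1 value a gene the Pearson correlation went from 0.65 to 0.51 under 5 kb. It went from 0.35 to 0.19 with the gene's probe outside and from 0.85 to 0.86 with it inside. Between lamotrigine and DMSO, where differences were smaller, the Spearman correlation on the same strand under 2 kb was 0.36 over 189 pairs. In the other classes of strand and distance it lay between -0.05 and 0.08. Both comparisons use the same DMSO array.

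**Figure D4:**
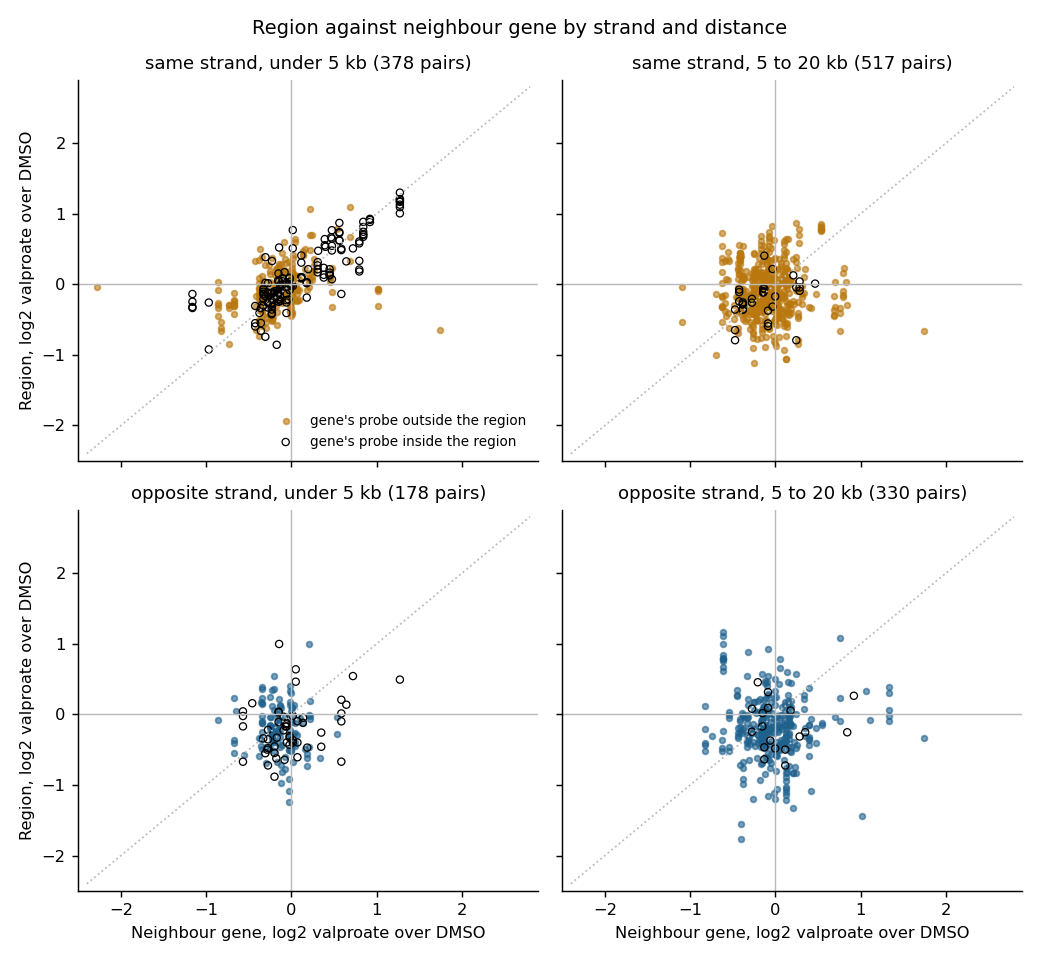
Each point is 1 pair of a region probe (vertical axis) and its neighbour gene (horizontal axis), both as log2 difference between valproate and DMSO, in 4 panels by strand and distance, with the dotted line marking equal differences. In the panel for the same strand under 5 kb the 378 points follow the line, most closely where the gene's probe lies inside the region. The other panels, with 517, 178 and 330 pairs, show no such trend.

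Beside genes with large differences most region probes stayed under 2-fold, as they did over all 1403 pairs, where 34 reached it. A neighbour at least 2-fold apart had a detected region in 31 pairs from 9 genes, named here after their values were seen. The region was also at least 2-fold apart in 8 of these, all beside 1500009L16Rik, and in 1 beside Isg15. Besides 1500009L16Rik and Isg15, Epop, which encodes a partner of Polycomb repressive complex 2, read 978 with valproate and 292 with DMSO, a difference of 1.74. Its 3 region probes differed by -0.67 to -0.34, so all lay on the other side of 0. Fah, an enzyme of tyrosine breakdown, was higher by 1.33, with 5 opposite-strand probes at -0.09 to 0.39. Hspb1, a small heat shock protein gene, was higher by 1.06, and Mroh1 by 1.11, with single region probes at 0.33 and -0.08.

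Of the lower neighbours, Npas4, an activity-dependent transcription factor gene, read 32.2, 68.8 and 42.7, a difference of -1.1, with 2 region probes at -0.54 and -0.04. Ptrhd1 was lower by 1.16 (log2 -1.16), with 4 same-strand probes at -0.34 to -0.14. Tctex1d4, a dynein light chain family gene, stood at -2.28, with 1 probe at -0.03.

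A region at least 2-fold apart had a detected neighbour in 34 pairs from 18 genes. In 17 of them, from 11 regions beside 10 genes, the gene differed by less than 1.2-fold. The share of all pairs with such a gene is not given here. Region and gene differed in the same direction in 21 of the 34 pairs, and in 61.1% of all pairs. Region and gene were at least 2-fold apart in the same direction in 8 pairs, all beside 1500009L16Rik.

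Both strands of an interval were detected on both arrays in 122 intervals. In 41 of them each strand had at least 2 such probes, and in 29 of the 41 the strands lay on the same side of 0. With 32.5% of the compared region probes above 0, strands can often share a side without being related. Some of the intervals overlap almost fully. The Spearman correlation between the strands was 0.10, both over all 122 and over the 41.

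Lamotrigine gave fewer large differences from DMSO. Of the 1649 region probes above background on both, 6 passed 2-fold upwards, or 0.364%, against 0.143% of all probes, and 3 downwards, or 0.182%, against 0.0717%. Farther regions had 3 higher and 4 lower of 2265. The split near genes was 4 and 4 under quantile normalization, 8 and 2 under median centring and 19 and 0 under spike-in scaling, and under normexp 0 probes were 2-fold apart either way. Beside Speer4e the difference was 1.37. A probe upstream of that of Wdfy4, a gene of antigen cross-presentation, read 14.6 with lamotrigine, 6.07 with DMSO and 6.53 with valproate, a difference of 1.27. The probe of Wdfy4 lay inside that region.

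Single probes beside Zfp956, a zinc finger gene, Usp9x, a deubiquitinase gene, and Itm2b, a membrane protein gene, were higher by 1.1, 1.1 and 1.02. One beside Ccn1, a matricellular protein gene, read 26.9 with lamotrigine and 13.4 with DMSO, a difference of 1.01, and is named here after its value was seen. Lower were probes beside G630090E17Rik, at -1.08, Vps4b, an ATPase of membrane scission, at -1.05, and Kif13b, a kinesin gene, at -1.02. Apart from those beside Speer4e and Ccn1, these probes read under 25 on each of the arrays, where the standard deviation between spots was widest.

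Regions beside genes of known function were described by lists of neighbour genes. Among regions beside developmental transcription factors 19 probes were detected on both arrays, with 0 at least 2-fold apart and a median of -0.03 against -0.14 for all region probes. The lowest of them, opposite Nfib, read 6.70 with valproate and 11.8 with DMSO, a difference of -0.82. Beside immediate early genes 22 probes had a median of -0.22 and 0 were at least 2-fold apart. One upstream of Klf2, a Krüppel-like transcription factor gene, read 175, 276 and 257 with valproate, DMSO and lamotrigine, a difference of -0.66, with Klf2 at -0.46.

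Beside chromatin regulators 10 probes had a median of -0.33 and 0 were at least 2-fold apart. The probe downstream of Tet1, a 5-methylcytosine oxidase gene, differed by -0.44 and Tet1 by -0.40, while that beside Hmgb2, a chromatin protein gene, differed by 0.50. Beside interferon and antigen presentation genes 1 of 9 probes was lower, that near Isg15, and a probe upstream of Socs3, an inhibitor of cytokine signalling, differed by -0.77. A single call among 9 probes is too few to describe this class of genes.

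Synaptic genes were represented by Homer1 alone, a postsynaptic scaffold gene, whose 5 probes differed by -0.30 to -0.12, with the gene at -0.37. Under spike-in scaling the lowest of these probes turned to 0.05. Axon guidance and adhesion genes had 6 probes, among them 1 opposite Pcdh10, a protocadherin gene, at 0.89, with the gene at -0.32. Another, opposite Tenm2, a teneurin gene, read 451, 682 and 586, a difference of -0.60. Cell cycle genes had 5 probes with a median of 0.16, and the single probe of the signalling list, opposite the neurotrophin receptor gene Ntrk2, differed by -0.31, or 0.04 under spike-in scaling. Regions beside ion channel genes had 8 probes and 0 were detected on both arrays.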

How the data were processed

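Expression was measured on 3 single-dye Agilent arrays, 1 per treatment. Per the file headers, the authors read spot intensity with Feature Extraction 10.7.1.1, and the processed signal is background-subtracted and detrended within the array, with no normalization between arrays and mm9 positions. The authors also deposited a table of quantile-normalized intensity, used as an alternative. The software behind that table is not given in the sources used here.

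Levels were computed as log2 of the processed signal minus the array's 75th percentile over non-control spots. Outlier spots were left out and spots of 1 probe averaged. Strand came from the order of probe coordinates, which matched the RefSeq strand for 99.6% of 21104 protein-coding probes. Neighbours were named through RefSeq accessions (844 of 862 probes matched, 100 renamed). Differences of 2-fold were counted without a test. The scripts were tested on simulated data, with pandas 2.3.3, scipy 1.17.1 and, for normexp, limma 3.58.1.

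Named regions are the 10 highest and 10 lowest with valproate, the 3 highest bounds each way, the 5 highest and 5 lowest with lamotrigine (where that many were 2-fold apart), the 5 brightest, the pairs described, and up to 2 regions per list. Members and lists were chosen with earlier results of these data known. Alternatives changed scaling, background correction, detection, distance, fold, strand and neighbour. The number of arrays limits the precision.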

Additional observations from a re-analysis of the deposited data

How the results depend on the processing

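The counts of 2-fold differences, the pairs of region and gene, the share detected and 46 values of named regions were recomputed under other settings, 1 change at a time. The bounds, the medians by list of neighbour genes, the 2 strands of an interval and the neighbours 2-fold apart were not. The split of 17 higher and 25 lower under valproate became 15 lower under median centring, 79 calls (73 higher, 6 lower) under spike-in scaling and 9 (9 higher, 0 lower) under normexp with an offset of 50, which by its construction shrinks differences of dim probes. At 1.5-fold there were 247 (91 and 156), at 3-fold 3 (1 and 2), without a detection filter 770 (225 and 545), and with the brightest probe of each set of overlapping regions 9 (3 and 6). A neighbour within 10 kb left 25 (12 lower) and within 5 kb 12 (10 and 2). Without the regions beside 1500009L16Rik, chosen after seeing the data, 9 were higher.

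For lamotrigine, 9 calls (6 and 3) became 19 (19 and 0) under spike-in scaling, 0 under normexp (0 and 0), 85 (53 and 32) at 1.5-fold, 0 (0 and 0) at 3-fold, 648 (365 and 283) without a detection filter, 4 (3 and 1) with 1 probe a region, 5 (2 higher) within 10 kb and 4 (2 higher) within 5 kb.

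The share of pairs on the same side of 0, 61.1%, was 56.8% under median centring, 68.9% under spike-in scaling, 64.5% under normexp, 67.1% within 10 kb, 72.7% within 5 kb and 56.7% without a detection filter. It was 65.1% on the same and 53.9% on opposite strands, and 57.0% with the gene's probe outside the region. The Spearman correlation of 0.17 was 0.31 within 10 kb, 0.46 within 5 kb, 0.0163 without a detection filter, 0.31 on the same strand, -0.0306 on opposite strands and 0.0589 with the gene's probe outside the region. On the same strand under 5 kb it went from 0.64 to 0.46 with the gene's probe outside and 0.24 without a detection filter, with 71.0% and 64.8% on the same side. On the same strand at 5 to 20 kb it was 0.18 with the lamotrigine array as control, and 67.3% lay on the same side under spike-in scaling. On opposite strands the share was 48.8% under median centring, 61.8% under spike-in scaling, 60.4% under normexp and 61.8% within 5 kb. Other causes were not tested.

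No named region at least 2-fold apart changed direction under another scaling, background correction or source of values. That could hardly be otherwise and is no check on them. They were picked as at least 2-fold apart, and the settings moved the median of all detected probes by at most 0.35. Under normexp 24 of these 27 fell below 2-fold, and under spike-in scaling 9. Smaller differences did turn. Those with valproate beside Cnbd2 and B4galt5 became 0.156 and 0.0726 under quantile normalization, 0.157 and 0.0726 in the authors' deposited table, 0.0493 and 0.00572 under median centring and 0.303 and 0.259 under spike-in scaling, which also gave 0.140 for Cdc42, 0.0758 for Rnf4, 0.0465 and 0.0734 for Homer1, 0.0362 for Ntrk2 and 0.0383 for Trp53inp1. Under normexp Cnbd2 became 0.00995 and Pcna -0.0928. No paired analysis was possible because each treatment has 1 array. Low signal over background limits most of these values.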
